A study of Mus musculus with 6 samples.

Results

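Annexins are proteins that bind negatively charged phospholipids when calcium rises, and so attach to the cytosolic face of membranes or, once released, to the surface of cells. Their shared part is a core of repeated domains, and the stretch before that core differs from member to member and carries the binding sites for partners such as S100 proteins. In macrophages they are known for membrane repair and vesicle traffic, for calming inflammation (annexin A1), for holding plasminogen at the cell surface (annexin A2) and for binding phosphatidylserine (annexin A5). The 8 genes described here, Anxa1, Anxa2, Anxa3, Anxa4, Anxa5, Anxa6, Anxa7 and Anxa11, were taken by name from a deposited table of 21958 genes. Each was on 1 row of that table, and all 8 had enough counts in both groups to be tested.

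The cells were RAW264.7, a line of mouse macrophages, and all were treated with lipopolysaccharide (LPS), the bacterial cell-wall product that activates these cells. The 3 co-culture libraries came from LPS-treated cells grown with BMSCs, which commonly stands for bone marrow stromal cells, and the other 3 from cells given LPS alone. No source used here gives the dose or time of LPS, the species of the BMSCs or whether the cells touched. No group without LPS was analysed here, so every change below is co-culture over LPS alone. The design text asks whether a scaffold carrying BMSCs and bFGF alters the inflammatory response of these cells, while the sample labels name BMSCs only. The labels call the replicates biological without saying that they were separate cultures, so p-values measure the spread between these libraries. The title of LPS replicate 3 gives the line as RAW264.9 and its cell line tag gives RAW264.7.

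Total counts were 19720727 to 21964252 in co-culture libraries and 17716460 to 22539884 in LPS libraries, and 3 counts, the floor taken for detection, were at most 0.16 CPM, the count scaled to a common library size with TMM factors. Co-culture replicate 1 stood apart from the other co-culture libraries, with a chi-square per degree of freedom of 15.78 and 26.82 against them, while they gave 5.16 with each other and the LPS libraries gave 1.71 to 2.11. Of 11103 genes tested, 75.5% passed a Benjamini-Hochberg adjusted p of 0.05 in edgeR's quasi-likelihood test, 37.5% higher and 38.0% lower with co-culture. With library totals in place of TMM scaling the split was 29.0% higher and 46.7% lower (75.7% in all), and over all tested genes the median log2 fold change was -0.177 in place of 0.001. After a correction that takes out of each library the trend of counts along gene length and GC content, 71.3% passed, 35.1% higher and 36.2% lower. All 10 macrophage markers were tested, of which 4 were higher and 2 lower, and their summed level was 27030 to 29650 CPM in the co-culture libraries, against 18840 to 19270 CPM in the LPS libraries. Most of that sum came from Lyz2 and Cd14, which were higher, while Mpeg1 and Ptprc were lower and Csf1r, Adgre1 and Itgam did not pass. After the length and GC correction 3 macrophage markers were higher and 2 lower. Lyz2 then had a log2 fold change of 0.118 in place of 0.711, and Ptprc did not pass, at 0.044 in place of -0.928. Cd68 changed sign, at -0.267 in place of 0.557. Cd14 and Mpeg1 kept their direction, at 0.271 and -0.670. Of 20 stromal markers, 13 had no more than 3 counts in any library, and Col1a2, Col3a1, Col6a1, Thy1, Cxcl12 and Postn were at 0 in all 6. The summed stromal level was 27.78 to 30.29 CPM in the co-culture libraries, against 20.32 to 20.94 CPM in the LPS libraries, most of it from Acta2 and Eng, and 1 of the 4 stromal markers tested was higher and 1 lower. After the length and GC correction 2 stromal markers were higher and 1 lower. Dcn, which had not passed at -0.031 on the log2 scale, then passed at 0.604 (edgeR adjusted p 0.029). The part of the macrophage and stromal markers in the results below was not tested. In libraries of this kind, fewer cells of a type and less RNA per cell cannot be told apart.

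All 8 annexins passed the test on the TMM scale, 6 higher and 2 lower with co-culture, where 75.5% of all tested genes passed in either direction, 37.5% higher and 38.0% lower. Anxa2 changed most and was 2.69-fold higher. Anxa6, Anxa5, Anxa11 and Anxa3 were 1.67, 1.57, 1.48 and 1.38-fold higher, and Anxa1 was 1.25-fold lower. Anxa7 was 1.12-fold higher and Anxa4 1.11-fold lower, but Anxa7 changed sign with library totals and Anxa4 after the length and GC correction. That correction also left Anxa5 at 1.08-fold. The median log2 fold change of the 8 was 0.51, against 0.001 for all genes tested. The groups did not overlap for any of the 8, as was so for 80.2% of tested genes. Without co-culture replicate 1 the same 6 genes were higher and the same 2 lower, with log2 fold changes of 0.68 for Anxa6, 0.61 for Anxa5, 0.57 for Anxa11, 0.42 for Anxa3, 0.17 for Anxa7 and -0.14 for Anxa4. After the length and GC correction 6 annexins were higher and 1 lower, where 35.1% and 36.2% of all genes were. Their median was then 0.34, against -0.017 for all. With library totals 5 were higher and 2 lower, where 29.0% and 46.7% of all genes were. Their median was then 0.33, against -0.177 for all.

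**Figure D1:**
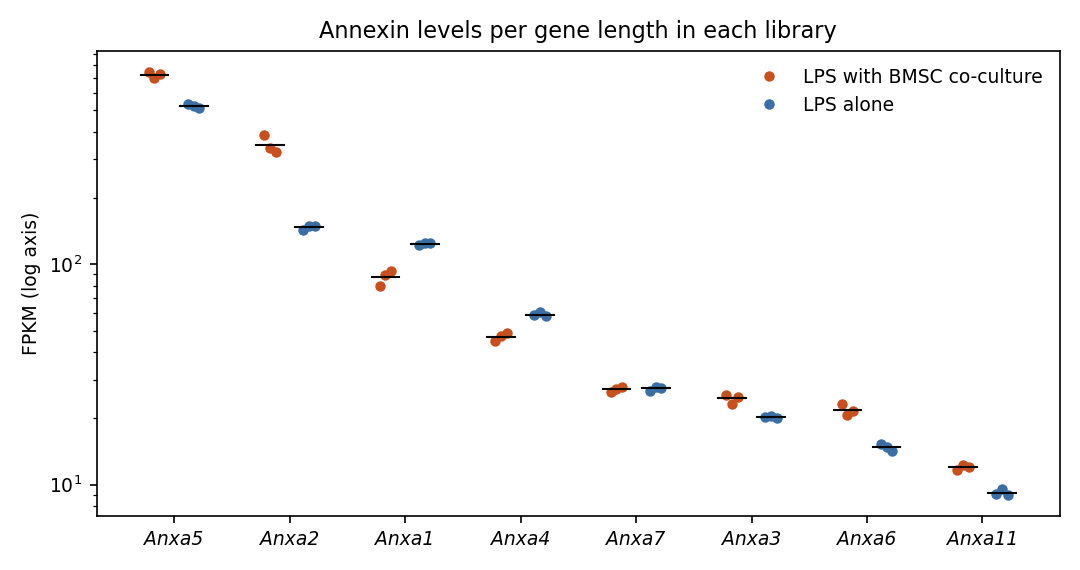
FPKM, the level per gene length, of each annexin in each library on a log axis; points are libraries and black lines are means of 3. Anxa5 stands at 701 to 748 in co-culture and 515 to 537 with LPS alone, and Anxa11 is the lowest of the 8 in both groups.

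Anxa2 encodes annexin A2, which forms a complex with S100A10 at the plasma membrane that binds plasminogen and its activator. It lies on chromosome 9 from 69453620 to 69491795 on the + strand (GRCm38, GENCODE M21), with up to 13 exons in a transcript. The gene stood at 1573, 1315 and 1269 CPM in the 3 co-culture libraries and 503, 521 and 524 CPM in the 3 LPS libraries. Every co-culture library was thus above every LPS library, and replicate 1 was the highest of all. The log2 fold change was 1.43 (SE 0.08, edgeR adjusted p 5.87e-07), which placed Anxa2 at rank 348 of the 11103 tested genes, counted from the largest rise. Without co-culture replicate 1 it was 1.33 (SE 0.037), and over 16 alternative settings it lay between 1.22 and 1.49.

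Anxa1 encodes annexin A1, a protein induced by glucocorticoids that signals through formyl peptide receptors to limit the recruitment of leukocytes. It lies on chromosome 19 from 20373428 to 20390944 on the - strand. Its level was 255, 274 and 285 CPM in co-culture libraries and 335, 343 and 342 CPM in LPS libraries. The co-culture libraries were all lower, and replicate 1 was the lowest. The log2 fold change was -0.32 (SE 0.06, edgeR adjusted p 0.000459), and it was -0.27 (SE 0.04) without co-culture replicate 1. With library totals it was -0.50, and Anxa1 was lower and passed the test in all 16 alternative settings.

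The start regions of Anxa2 and Anxa1 are shown because these genes had the largest rise and the largest fall among the 8. Anxa4 is shown with them because its region held a match to the NF-kB consensus, the site of the main transcription factor downstream of LPS. The sequences are RefSeq's (GRCm38.p6), 250 bases before to 50 after a start site, 5′ to 3′ on the gene's strand. They lie at chr9:69453433-69453732 (+ strand), chr19:20390622-20390921 (- strand) and chr6:86793535-86793834 (- strand). Capitals mark matches to the motifs searched.
Anxa2: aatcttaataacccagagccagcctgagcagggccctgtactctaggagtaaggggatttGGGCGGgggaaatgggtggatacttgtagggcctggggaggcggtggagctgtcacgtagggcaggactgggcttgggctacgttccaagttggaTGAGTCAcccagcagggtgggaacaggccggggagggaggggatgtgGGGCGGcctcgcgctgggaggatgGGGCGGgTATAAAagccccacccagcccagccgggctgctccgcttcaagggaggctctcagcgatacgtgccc
Anxa1: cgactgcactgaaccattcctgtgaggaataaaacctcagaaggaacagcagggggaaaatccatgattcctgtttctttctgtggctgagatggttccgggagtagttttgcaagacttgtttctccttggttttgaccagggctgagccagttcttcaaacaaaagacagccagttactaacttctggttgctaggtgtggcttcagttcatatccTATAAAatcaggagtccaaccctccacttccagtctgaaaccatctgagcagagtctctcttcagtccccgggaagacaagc
Anxa4: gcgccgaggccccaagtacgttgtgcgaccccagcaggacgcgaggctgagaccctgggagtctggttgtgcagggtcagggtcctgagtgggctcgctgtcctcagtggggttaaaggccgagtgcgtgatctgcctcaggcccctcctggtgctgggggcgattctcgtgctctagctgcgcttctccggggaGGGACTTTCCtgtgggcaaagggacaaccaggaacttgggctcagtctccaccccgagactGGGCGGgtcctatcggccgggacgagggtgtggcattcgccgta

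The motifs were searched on both strands in the regions of 6 of the 8 genes; Anxa3 and Anxa6 had no entry. The Anxa2 region held 3 GC boxes (GGGCGG, in 35.6% of 32817 start regions of the mouse), 1 TATA box (TATAAA, 13.6%) and 1 AP-1 motif (TGANTCA, 7.81%), which began 95 bases before the start. The Anxa1 region held 1 TATA box, 32 bases before the start, and no GC box. The Anxa4 region held 1 GC box and the NF-kB match (in 4.5% of start regions), which began 55 bases before the start. The Anxa5 region and the other region listed for Anxa4 held none of the motifs. Those of Anxa7 and Anxa11 held GC boxes only. No region of the 6 genes held a CRE (TGACGTCA, 1.79%), an interferon-stimulated response element (3.43%), a STAT motif (TTCNNNGAA, 8.29%) or a full glucocorticoid response element (in 3 of the 32817 regions). The GC content was 63.7% in the Anxa2 region and 47.3% in the Anxa1 region, with 13 and 3 CpG sites, against medians of 52.7% and 7. These are matches of letters in a window, and no binding was measured.

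Anxa5 encodes annexin A5, the protein used to stain dying cells because it binds the phosphatidylserine they expose. It lies on chromosome 3 from 36448923 to 36475894 on the - strand. Its level was 1454, 1306 and 1367 CPM in co-culture libraries and 898, 877 and 862 CPM in LPS libraries, with no overlap. This was a log2 fold change of 0.65 (SE 0.06, edgeR adjusted p 4.80e-06). Its listed length of 1777 bases was the shortest of the 8. After the length and GC correction the log2 fold change was 0.11 (SE 0.04, adjusted p 0.0348 in edgeR), or 1.08-fold. With a replicate block added to the correction Anxa5 did not pass (adjusted p 0.0641 in edgeR).

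Anxa6 encodes annexin A6, whose core is doubled and which is known for membrane and cholesterol traffic at endosomes. It lies on chromosome 11 from 54979108 to 55033445 on the - strand, with up to 26 exons in a transcript, the most among the 8. Co-culture libraries had 74.4, 63.3 and 66.7 CPM and LPS libraries had 42.3, 40.7 and 39.3 CPM, so the lowest co-culture library was above the highest LPS library. Its log2 fold change was 0.74 (SE 0.08, edgeR adjusted p 1.25e-05), and after the length and GC correction it was 0.36 (SE 0.06).

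Anxa3 encodes annexin A3, known from the granules of neutrophils. The gene, on chromosome 5 from 96793339 to 96845966 on the + strand, had 102.1, 89.1 and 95.5 CPM in co-culture libraries and 69.6, 69.9 and 68.8 CPM in LPS libraries. The LPS libraries lay within 0.021 of each other on the log2 scale, and the co-culture libraries spanned 0.197. Anxa3 had a log2 fold change of 0.46 (SE 0.06, edgeR adjusted p 9.04e-05), and 0.28 with library totals.

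Anxa4 encodes annexin A4, which gathers on damaged plasma membranes and limits the movement of membrane proteins. It lies on chromosome 6 from 86736840 to 86793584 on the - strand. Its level was 228, 229 and 239 CPM in co-culture libraries and 256, 265.3 and 254 CPM in LPS libraries. All co-culture libraries were lower, by a log2 fold change of -0.16 (SE 0.05, edgeR adjusted p 0.0175), though after the length and GC correction the value was 0.025 (SE 0.043, adjusted p 0.62). Leaving out co-culture replicate 2 or LPS replicate 2 also ended the call, with adjusted p of 0.0719 and 0.0825 in edgeR.

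Anxa7 and Anxa11 encode annexins with long starts, and both bind the calcium sensor ALG-2, the product of Pdcd6. Annexin A7 also binds sorcin, and annexin A11 binds S100A6 and tethers RNA granules to lysosomes. Anxa7, on chromosome 14 from 20455260 to 20480133 on the - strand, had 173.3, 171.2 and 174.6 CPM in co-culture libraries and 150.5, 156.6 and 155.2 CPM in LPS libraries. The groups did not overlap on this scale, with a log2 fold change of 0.17 (SE 0.05, edgeR adjusted p 0.0111). With library totals the value was -0.01 (adjusted p 0.848), and the deposited FPKM were 26.4, 27.3 and 27.7 in co-culture and 26.7, 27.8 and 27.5 with LPS alone, so the groups overlapped there. After the length and GC correction it was 0.36 (SE 0.04, adjusted p 2.32e-05 in edgeR). Leaving out LPS replicate 1 ended the call (adjusted p 0.0715).

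Anxa11, on the same chromosome from 25842156 to 25886804 on the + strand, had 52.7, 53.3 and 52.5 CPM in co-culture libraries and 35.2, 37.1 and 35.1 CPM in LPS libraries. It had the narrowest spread of the 8 in co-culture, with a coefficient of variation of 0.788%, and no overlap between groups. Anxa11 had a log2 fold change of 0.56 (SE 0.06, edgeR adjusted p 1.92e-05), or 0.33 (SE 0.06) after the length and GC correction. In GENCODE M21, 113 exon bases of Anxa11 are shared with its antisense gene Anxa11os. Anxa2, Anxa3 and Anxa4 share 98, 112 and 75 exon bases with other annotated genes, that of Anxa3 on the same strand. None of these partners has a row in the table. No strand setting is given in the sources used here, so reads of such partners could not be told apart.

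**Figure D2:**
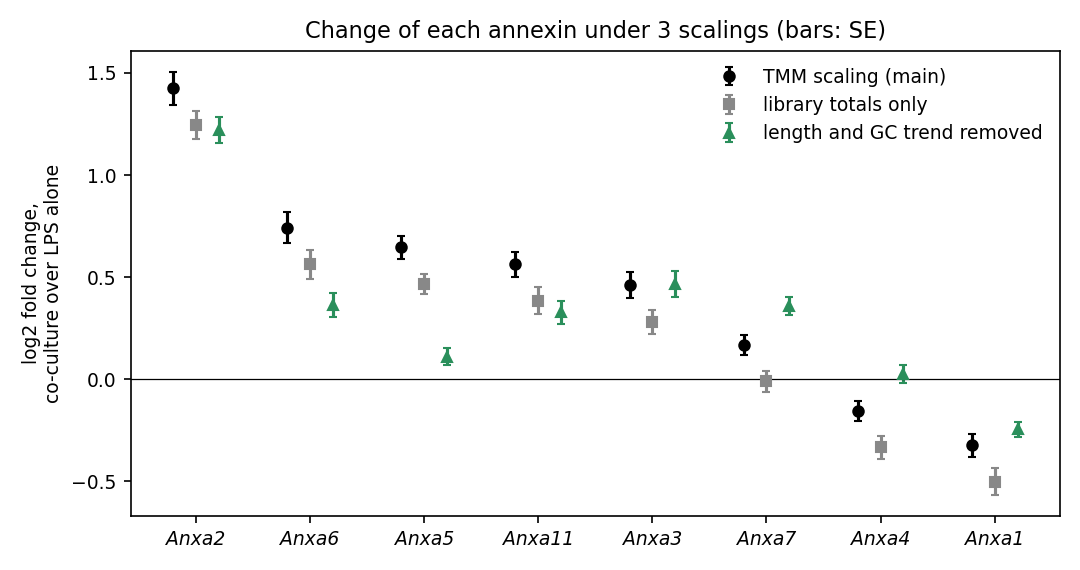
Log2 fold change of each annexin, co-culture over LPS alone, under TMM scaling, library totals only and the length and GC correction; bars are standard errors. Anxa2 stays between 1.22 and 1.43, Anxa5 stands at 0.65 with TMM scaling and 0.11 after the correction, Anxa7 is below 0 with library totals only and Anxa4 is above 0 after the correction.

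The remaining annexin genes in the table were at or near 0 except Anxa9. Anxa8 and Anxa13 had no count in any library, which allows up to 0.149 to 0.16 CPM in co-culture libraries and 0.125 to 0.159 CPM in LPS libraries. Anxa10 had 1 count in 1 co-culture library. Anxa9 had 12.5, 12.8 and 12.1 CPM in co-culture libraries and 7.0, 7.8 and 8.44 CPM in LPS libraries, with a log2 fold change of 0.68 (SE 0.10, edgeR adjusted p 0.000149). The length and GC correction ended that call (0.191, adjusted p 0.103). Anxa9 shares 71 exon bases with Mindy1 on the opposite strand and 94 with 6330562C20Rik on the same strand, so its counts are less certain. 6330562C20Rik has no row in the table.

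Co-culture replicates spread more than LPS replicates for 5 of the 8 genes. On the log2 scale the range over replicates was 0.31 in co-culture and 0.058 with LPS alone for Anxa2, and 0.16 and 0.034 for Anxa1. In co-culture replicate 1 Anxa2 stood 0.189 above its group mean and Anxa1 0.088 below, and Anxa6, Anxa3 and Anxa5 stood 0.131, 0.098 and 0.082 above. Anxa4, Anxa7 and Anxa11 were the exceptions, with a range of 0.063, 0.028 and 0.022 in co-culture against 0.064, 0.057 and 0.079 with LPS alone.

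Per gene length, the 8 annexins kept 1 order in both groups. From highest to lowest it was Anxa5, Anxa2, Anxa1, Anxa4, Anxa7, Anxa3, Anxa6 and Anxa11. No neighbours in that order overlapped in their 3 libraries in either group. Anxa5 averaged 727 ± 23.7 FPKM in co-culture and 526 ± 11.2 FPKM with LPS alone (SD, n = 3 each), which ranked it 62nd and 53rd of all tested genes. Anxa11 averaged 12.01 ± 0.335 FPKM in co-culture and 9.20 ± 0.296 FPKM with LPS alone. The gap between Anxa2 and Anxa1 differed most between groups, since Anxa2 averaged 348 ± 32.6 FPKM in co-culture and 147.0 ± 3.14 FPKM with LPS alone, and Anxa1 averaged 87.7 ± 6.79 FPKM in co-culture and 124 ± 1.59 FPKM with LPS alone. The ratio of Anxa2 to Anxa1 was 4.81, 3.74 and 3.47 in co-culture libraries and 1.17, 1.19 and 1.2 in LPS libraries. That ratio compares genes within a library, so a scaling factor per library does not enter it.

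The summed annexin FPKM was 1345, 1258 and 1284 in co-culture libraries and 933, 933 and 918 in LPS libraries. Anxa5 held 56.1% ± 0.768 of it in co-culture and 56.7% ± 0.786 with LPS alone (SD, n = 3 each), a difference within the spread of the libraries. Anxa2 held 26.9% ± 1.72 in co-culture and 15.9% ± 0.444 with LPS alone. The share of Anxa1 was 6.79% ± 0.722 in co-culture and 13.4% ± 0.244 with LPS alone, and that of Anxa4 was 3.63% ± 0.251 in co-culture and 6.38% ± 0.124 with LPS alone. Each of Anxa3, Anxa6, Anxa7 and Anxa11 held less than Anxa4 in every library. The sums and shares carry no length and GC correction, after which the log2 fold change of Anxa5 was 0.111 in place of 0.647.

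**Figure D3:**
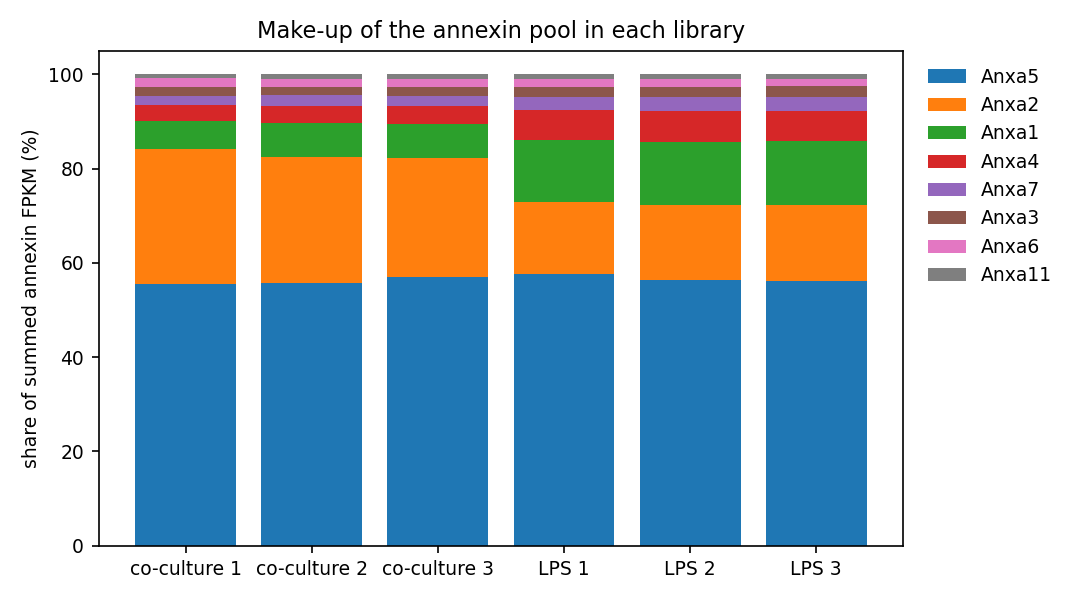
Share of the summed FPKM of the 8 annexins held by each, in the 3 co-culture libraries and the 3 LPS libraries. Anxa2 takes 25.2% to 28.6% in co-culture and 15.4% to 16.3% with LPS alone, and Anxa5 takes 55.6% to 57.6% in all 6. No length and GC correction is applied.

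Calcium-binding proteins of the EF-hand type are the best known partners of annexins. Of 7 such genes tested, 6 were higher with co-culture, none was lower and S100a4 did not pass, at 0.95, 0.87 and 0.32 CPM in co-culture libraries and 0.318, 0.238 and 0.501 CPM in LPS libraries (edgeR adjusted p 0.0774, or 0.0102 without co-culture replicate 3). Of all tested genes 37.5% were higher and 38.0% lower, and the median log2 fold change of the 7 was 0.99, against 0.001 for all. After the correction 5 were higher, against 35.1% of all genes, and the median was 0.29. S100a10, the partner of annexin A2, had 688, 600 and 587 CPM in co-culture libraries and 248.8, 253 and 249.8 CPM in LPS libraries, with no overlap. It was 2.49-fold higher (log2 1.32, SE 0.07, edgeR adjusted p 3.84e-07), or 0.52 on the log2 scale after the correction. The ratio of S100a10 to Anxa2, per length, was 1.35, 1.40 and 1.42 in co-culture libraries and 1.52, 1.5 and 1.47 in LPS libraries. The co-culture libraries were all lower in that ratio, with a mean of 1.39 ± 0.0405, against 1.496 ± 0.0269 in LPS libraries (SD, n = 3 each). That ratio carries no length and GC correction, after which the log2 fold changes were 0.522 for S100a10 and 1.222 for Anxa2.

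S100a11, the partner of annexin A1, had 1130, 845 and 816 CPM in co-culture libraries and 311, 338 and 330 CPM in LPS libraries. It was 2.85-fold higher (log2 1.51, SE 0.11, edgeR adjusted p 2.44e-06), but 0.16 on the log2 scale after the correction. Its ratio to Anxa1, per length, was 25.2, 17.6 and 16.3 in co-culture libraries and 5.29, 5.62 and 5.5 in LPS libraries. These ratios carry no length and GC correction, after which the log2 fold changes were 0.156 for S100a11 and -0.246 for Anxa1, in place of 1.51 and -0.32. S100a6, which binds annexin A11, was 2.66-fold higher, or 0.67 on the log2 scale after the correction. Among the penta-EF-hand proteins, Pdcd6 was 1.49-fold higher (log2 0.57), Sri, which encodes sorcin, 1.67-fold (0.74) and Pef1, the partner of ALG-2, 1.69-fold (0.76). After the correction Pdcd6 stood at 0.29, Sri at 1.21 and Pef1 at 0.148, where Pef1 lost its call (adjusted p 0.0681 in edgeR).

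**Figure D4:**
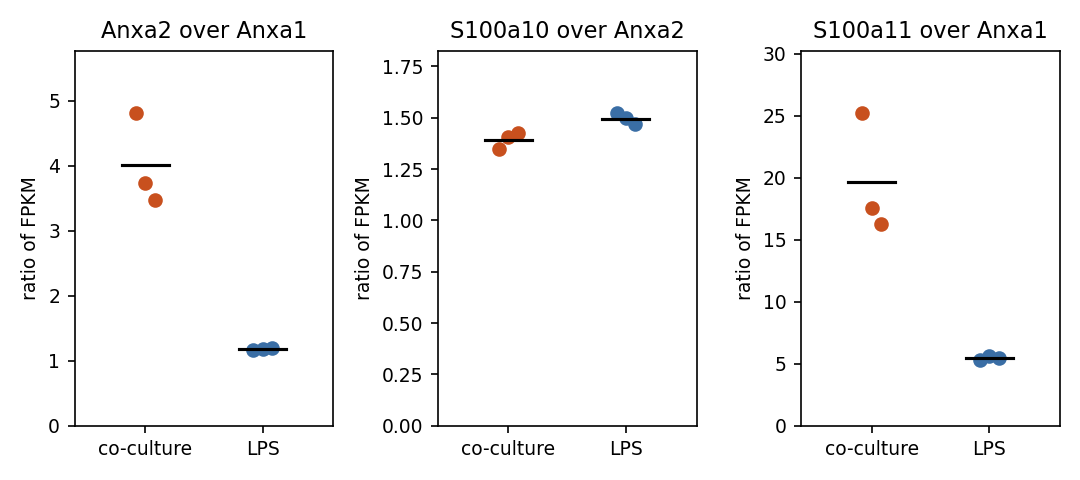
Ratio of FPKM within each library for Anxa2 over Anxa1, S100a10 over Anxa2 and S100a11 over Anxa1; points are libraries, lines are means of 3 and the axes start at 0. The first ratio is 3.47 to 4.81 in co-culture and 1.17 to 1.2 with LPS alone, while S100a10 over Anxa2 is 1.35 to 1.42 in co-culture and 1.47 to 1.52 with LPS alone; no length and GC correction is applied.

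Annexin A1 and bacterial peptides act through formyl peptide receptors. Both of the receptor genes tested were higher on the TMM scale, where 37.5% of all tested genes were. Fpr1 had 110.5, 93.2 and 99.3 CPM in co-culture libraries and 44.8, 47.3 and 48.6 CPM in LPS libraries, a log2 fold change of 1.11 (SE 0.07, edgeR adjusted p 1.48e-06). Fpr2, the receptor best known for annexin A1, had 52.7, 47.3 and 46.6 CPM in co-culture libraries and 35.1, 37.8 and 36.1 CPM in LPS libraries. Its log2 fold change was 0.43 (SE 0.07, edgeR adjusted p 0.0004), and after the length and GC correction it was 0.04 (adjusted p 0.619) and that of Fpr1 was 0.65. Fpr3 was at or below the floor in all libraries.

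Annexin A1 was first known as an inhibitor of phospholipase A2, which frees arachidonic acid. Of 9 phospholipase A2 and leukotriene genes tested, 5 were higher and 3 lower, against 37.5% and 38.0% of all genes, with a median log2 fold change of 0.26, or -0.17 after the length and GC correction. Pla2g4a, the cytosolic enzyme that annexin A1 was described to inhibit, had 127, 170 and 192 CPM in co-culture libraries and 275, 271 and 288 CPM in LPS libraries. Its log2 fold change was -0.77 (SE 0.12, edgeR adjusted p 0.000248), and -0.33 after the correction. Pla2g4c, another cytosolic phospholipase A2, fell 2.91-fold. Pla2g7, the secreted enzyme that breaks down platelet-activating factor, had 27.0, 29.6 and 27.9 CPM in co-culture libraries and 5.25, 4.38 and 5.18 CPM in LPS libraries and was 5.7-fold higher (edgeR adjusted p 9.89e-08). Pla2g6, a calcium-independent enzyme, was 1.67-fold higher and Pla2g12a, a secreted one, 1.77-fold. Lta4h, which makes leukotriene B4, was 1.19-fold higher but did not pass when only library totals were used (edgeR adjusted p 0.294), and after the correction its log2 fold change was 0.65 in place of 0.255. Alox5ap, the 5-lipoxygenase activating protein, was 1.47-fold higher, but -0.17 on the log2 scale after the correction. Alox5, which encodes 5-lipoxygenase itself, was lower, with a log2 fold change of -0.51 (SE 0.11, edgeR adjusted p 0.00145).

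Anxa1 is a textbook target of the glucocorticoid receptor. Of 9 genes tested, the receptor gene and its other known targets, 5 were higher and 4 lower, against 37.5% and 38.0% of all genes. Nr3c1, the receptor itself, had 26.0, 34.9 and 38.9 CPM in co-culture libraries and 76.3, 75.1 and 76.8 CPM in LPS libraries. It was 2.29-fold lower (log2 -1.20, SE 0.12, edgeR adjusted p 1.22e-05), or -0.60 after the length and GC correction. Fkbp5, a chaperone that it induces, was 1.39-fold lower (-0.23 on the log2 scale after the correction). Klf9 and Sgk1 were also lower. Klf9 averaged 5.988 CPM in co-culture libraries and 11.99 CPM in LPS libraries (edgeR adjusted p 8.705e-06). Sgk1 averaged 9.028 CPM in co-culture libraries and 18.02 CPM in LPS libraries (edgeR adjusted p 0.0002541). Against these, Tsc22d3, which encodes GILZ, was 3.16-fold higher, the phosphatase gene Dusp1 3.49-fold, the mRNA-decay factor Zfp36 2.12-fold, the clock gene Per1 1.52-fold and Errfi1, an inhibitor of EGF receptor signalling, 4.67-fold. After the correction Tsc22d3, Dusp1, Zfp36, Per1 and Errfi1 stood at 1.70, 1.48, 0.78, 0.465 and 2.20 on the log2 scale. Dusp1 and Zfp36 are also known to be induced by LPS itself.

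Of 6 genes of the plasminogen system tested, 4 were higher and 2 lower, against 37.5% and 38.0% of all genes. Among those that were higher were the plasminogen receptor genes Plgrkt (1.75-fold) and Eno1 (1.74-fold), and Plaur, the receptor of urokinase (1.5-fold). After the length and GC correction Plaur was 0.19 higher on the log2 scale. Plau, urokinase itself, had 44.8, 61.8 and 60.7 CPM in co-culture libraries and 102, 103 and 109 CPM in LPS libraries, a log2 fold change of -0.91 (SE 0.11, edgeR adjusted p 3.75e-05). Serpinb2 was 1.23-fold lower with an edgeR adjusted p of 0.0471, a call that was lost without co-culture replicate 2 or any 1 of the LPS libraries. Without co-culture replicate 1 its log2 fold change was -0.149 in place of -0.293, and after the correction it did not pass at -0.165 (edgeR adjusted p 0.102). Plat, the activator that the complex of annexin A2 and S100A10 also binds, had 3, 15 and 10 counts in co-culture libraries and 3, 2 and 3 counts in LPS libraries and was below the filter. With no filter it was higher (log2 1.88, edgeR adjusted p 0.0205), as it was without co-culture replicate 1 (2.33) or LPS replicate 1 (2.05), and it did not pass without LPS replicate 2 or 3 (adjusted p 0.0715 and 0.0649 in edgeR).

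Phosphatidylserine, the ligand of annexin A5, is moved across the membrane by scramblases and flippases and recognised by uptake receptors. Of 17 such genes tested, 9 were lower, 3 higher and 5 did not pass, against 38.0% lower and 37.5% higher over all genes, with a median log2 fold change of -0.59, or -0.38 after the length and GC correction. The scramblase gene Ano6 was 1.73-fold lower and the flippase subunit gene Tmem30a 1.75-fold lower; after the correction they stood at -0.40 and -0.25 on the log2 scale. Stab1, a receptor for phosphatidylserine, was 1.77-fold lower. Axl, a receptor tyrosine kinase of dead-cell uptake, had 0.448, 0.256 and 0.533 CPM in co-culture libraries and 2.81, 2.57 and 2.8 CPM in LPS libraries (edgeR adjusted p 7.33e-06). Mfge8, the secreted bridge to integrins, was 2.1-fold higher. Itgav, the integrin chain that Mfge8 binds, did not pass (log2 -0.11, SE 0.07), although it passed at -0.181 without co-culture replicate 3, at -0.289 with library totals and at 0.566 after the correction, and stood at -0.052 without co-culture replicate 1.

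Membrane repair brings annexins, calpains and the ESCRT machinery to a lesion. Of 14 such genes tested besides annexins, 9 were higher and 3 lower on the TMM scale, where 37.5% and 38.0% of all genes were. After the length and GC correction 7 were higher and 1 lower, where 35.1% and 36.2% of all genes were. Syt7, a calcium sensor of lysosome exocytosis, had 64.5, 55.7 and 58.1 CPM in co-culture libraries and 10.9, 10.9 and 10.1 CPM in LPS libraries, or 5.58-fold higher (edgeR adjusted p 4.45e-08). The ESCRT-III genes Chmp2a and Chmp4b were 2.69 and 1.75-fold higher and the calpain subunit gene Capns1 2.14-fold; after the correction they stood at 0.53, 0.22 and 0.58 on the log2 scale. Myof, a ferlin of membrane repair, was 1.74-fold lower, or -0.34 after the correction. Ahnak, a scaffold that binds annexin A2 and S100A10, was 1.53-fold lower and Pdcd6ip, the ALG-2 partner ALIX, 1.37-fold lower. Both lost the call after the correction, at 0.034 and -0.115 on the log2 scale. Dysf had too few counts to be tested.

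Copines are the other large family of soluble proteins that bind phospholipids with calcium, and 3 of the 8 listed here were tested. Cpne6, which was not on the list, had too few counts to be tested. Cpne3 had 26.4, 32.6 and 37.0 CPM in co-culture libraries and 72.9, 71.5 and 71.8 CPM in LPS libraries, a log2 fold change of -1.17 (SE 0.11, edgeR adjusted p 6.24e-06), or -0.50 after the length and GC correction. Cpne8 was 1.3-fold lower, and not called after the correction. Cpne2 was 1.146-fold higher on the TMM scale but -0.159 on the log2 scale after the correction, and it did not pass without co-culture replicate 2 or LPS replicate 3 (edgeR adjusted p 0.0552 and 0.11) or with library totals. All annexins in the table carry the annotation calcium-dependent phospholipid binding there. Of the 14 tested genes that share it and are no annexins, 3 were higher and 7 lower, against 37.5% and 38.0% of all genes. Their median log2 fold change was -0.29, against 0.001 for all genes tested. Among these 14 are the 3 copines and Pla2g4a, Pla2g4c and Syt7, which are given above. Among calpain, caspase, ADAM and neutrophil protease genes, which include enzymes known to cut annexins, 8 were tested, of which 2 were higher and 5 lower, against 37.5% and 38.0% of all genes.

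**Figure D5:**
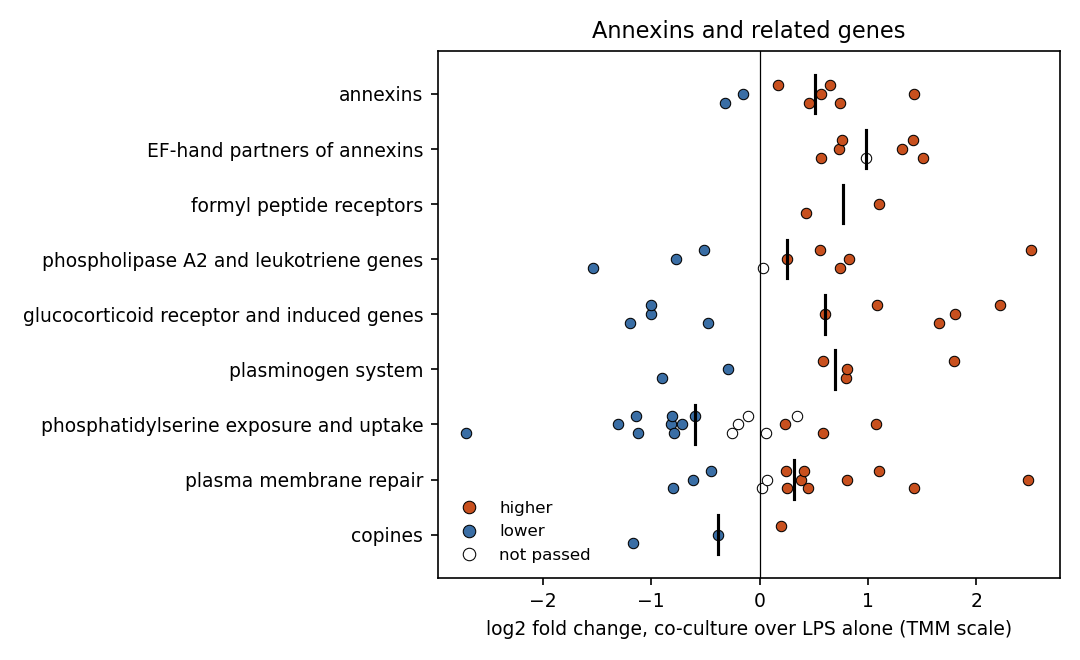
Log2 fold change on the TMM scale, co-culture over LPS alone, of every tested gene in 9 lists; orange is higher, blue lower, white not passed at an adjusted p of 0.05, and vertical bars are list medians. The annexin median is 0.51, that of the calcium-binding partners 0.99 and that of phosphatidylserine genes -0.59, on a scale where Anxa7 changes sign with library totals, and Anxa4, S100a4, Alox5ap, Itgav, Ahnak and Cpne2 after the length and GC correction.

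Over the 6 libraries, the log2 CPM of 8586 expressed protein-coding genes (mean of 3 or above) was compared with that of Anxa2, and the closest were Psma6, Akr1b3, Tmem208, Slc31a2 and Polr1d. Their Pearson r was 0.9998 to 0.9999. This is a description of 6 libraries in 2 groups, and 1060 genes had an r above 0.99. Psma6, a proteasome subunit, averaged 597 CPM in co-culture libraries and 378 CPM in LPS libraries. Akr1b3, an aldose reductase, averaged 565 CPM in co-culture libraries and 278 CPM in LPS libraries.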

How the data were processed

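RNA of 6 libraries was captured on oligo(dT) beads and primed with random hexamers, per the labels' protocols. HISAT2 2.0.5 and mm10 were used, per the submitters' processing notes; no counting tool, annotation or strand setting is named in the sources used. The authors deposited whole-number read counts per gene and FPKM; these FPKM are the counts over gene length (as listed in the table) and column total (implied totals differ from the sums by at most 12 reads). There are 21958 rows of genes and 1 row left empty. The table's start positions equal GENCODE M21 for 517 genes only, so the positions printed are those of M21 (GRCm38), matched by identifier.

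Genes that passed edgeR's default filter by group (11103) were tested with its robust quasi-likelihood test (edgeR 4.0.16 in R 4.3.3) after TMM scaling, with group as the only term and Benjamini-Hochberg adjustment over all genes; calls are at 0.05 and the biological coefficient of variation was 7.05%. It was tested on simulated data. CPM values are TMM-scaled, and FPKM carry no TMM scaling. Floors cover counting error only, since no molecular identifiers are described. Alternatives were RLE factors, library totals, DESeq2 1.42.0, limma 3.58.1 on log2(FPKM + 1) and log2(FPKM + 0.1) where FPKM averaged 1 or more, no filter, a minimum of 10 counts in each library, blocking by replicate number, an offset for length and GC content, called the correction here (natural splines with 5 degrees of freedom each, per library), the block with that offset, and leaving out each library.

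The 8 members, the lists, the tests and the alternatives were chosen with earlier results of these data known. From each related list the 4 tested genes with the smallest p and up to 3 abundant ones could be named. Protease genes are given by counts, and marker genes by counts, sums and some names. The ratios and the list by annotation term were chosen after the values were seen. S100a4, Fpr3, Plat, Dysf, Klf9, Sgk1, Alox5, Cpne6 and the stromal genes at 0 are named as exceptions. Some genes that this rule takes are not reported here.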

Additional observations from a re-analysis of the deposited data

How the results depend on the processing

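Over 16 alternatives, Anxa1, Anxa2, Anxa3, Anxa6 and Anxa11 kept direction and call in all. The log2 fold change of Anxa4 turned to 0.025 with the length and GC offset and with the replicate block plus that offset, and ran from -0.172 to -0.136 when each library was left out. That of Anxa7 turned to -0.011 with library totals and with limma on log2(FPKM + 1) and log2(FPKM + 0.1), and ran from 0.145 to 0.181 when each library was left out. Anxa5 lost its call with the block plus offset (0.111, adjusted p 0.0641). The number of annexins lower was 1 with the offset, with and without the block, and 1 to 2 over left-out libraries. Of the 2 formyl peptide receptors tested, 1 passed with the offset, with and without the block. The number of copines passing was 1 with block plus offset. That of stromal markers was 1 with each limma setting and with 10 counts in every library. It was 3 with the offset, with and without the block.

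Replicate numbers did not pair the libraries: the correlation of deviations between same-numbered libraries was -0.042, -0.024 and 0.04, and not every library correlated best with its own number. The replicate block called 8217 genes in place of 8382, and the same 6 annexins higher and 2 lower. Among related genes, the offset and the block plus offset turned S100a4 (-0.228 and -0.263), Alox5ap (-0.172 in both), Itgav (0.566 in both), Ahnak (0.034 in both) and Cpne2 (-0.159 in both). Both also turned the macrophage markers Ptprc (0.044 and 0.042) and Cd68 (-0.267 and -0.268). Of 746 further values of 47 related genes, with protease and marker genes left out, 707 kept direction and call. The cause was not tested. With 3 libraries a group, the changes of Anxa4 and Anxa7 on the TMM scale are near the limit of what the spread allows. Their sign also depended on the scaling.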
